A study of Mus musculus with 17 samples.

Results

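Ltf, Camp, Ngp, Lcn2, Mmp8, Mmp9, Chil3, Cd177, Padi4 and Ly6g are genes of the secondary and tertiary granules and of the mature state of mouse neutrophils. These 10 genes were taken as a named list, and all 10 were among the 20227 genes measured. Gene values are mean log2 signals over the probe sets assigned to its symbol alone whose mean over the 17 arrays exceeded 4.599, the median over all probe sets. The gene values rested on 22 probe sets for Ltf, 4 for Camp, 6 for Ngp, 9 for Lcn2, 17 for Mmp9, 13 for Cd177, 24 for Padi4 and 2 for Ly6g, while Mmp8 and Chil3 rested on 1 each.

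The samples were RNA of 32D, a mouse myeloblast-like line that depends on IL-3, hybridised to Affymetrix Mouse Exon 1.0 ST arrays with probe sets for single exons. The groups were FLT3/ITD lines (9 arrays, each of a different human FLT3 internal tandem duplication mutant, grown without mouse IL-3), human wild-type FLT3 with FLT3 ligand at 20 ng/mL (2 arrays, WT + FL), human wild-type FLT3 (2 arrays, WT), the empty pLXRN retroviral vector (2 arrays) and untransduced parental cells (2 arrays). The medium of WT, vector and parental cells held 1 ng/mL mouse IL-3, and the protocol does not state outright that IL-3 stayed in the WT + FL cultures. The ligand group's label could also mean that the ligand was transduced; here it is taken as the WT line split and given ligand, as the growth protocol describes. All transduced lines were polyclonal populations made with retrovirus, and the vector and WT lines were kept under G418 selection. In the ITD comparisons with WT, vector and parental cells, the mutant receptor and growth without IL-3 cannot be told apart. In the comparison of ITD with WT + FL, the mutant receptor, the added ligand and a possible difference in IL-3 cannot be told apart. G418 selection of the vector and WT lines is a further possible difference from ITD and parental cells, and its part was not tested. Likewise, where WT + FL is compared with WT, vector or parental cells, ligand and a possible loss of IL-3 cannot be told apart. Whether the 2 arrays of a control pair came from separately made lines is not settled by the labels, so the spread within a pair may be technical. The p-values measure only the spread between these samples. In the fit of all groups this spread is shared and includes that among the 9 ITD lines, also where 2 control groups are compared.

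Neutrophils load their granules in sequence. Primary granule proteins are made in promyelocytes, secondary (specific) granule proteins such as lactoferrin in myelocytes and metamyelocytes, and tertiary (gelatinase) granule proteins after them. In mice the transcription factor C/EBPε is needed for the secondary granule genes, and the surface proteins and enzymes of the mature cell appear in the same late stages.

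The promoters of 4 of the genes are shown because 3 of them encode granule proteins and lie near each other on chromosome 9, and the fourth, Ly6g, had the largest differences between groups. Each is the 250 bases before the start of the gene from RefSeq (GRCm38.p6), and capitals mark matches of TTNNGNAA, a C/EBP-type motif, on either strand.
Ltf: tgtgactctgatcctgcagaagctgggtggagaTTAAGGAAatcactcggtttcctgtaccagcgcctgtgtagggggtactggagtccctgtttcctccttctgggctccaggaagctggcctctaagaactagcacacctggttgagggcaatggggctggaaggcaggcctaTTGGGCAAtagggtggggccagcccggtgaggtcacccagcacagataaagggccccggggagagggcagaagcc
Ngp: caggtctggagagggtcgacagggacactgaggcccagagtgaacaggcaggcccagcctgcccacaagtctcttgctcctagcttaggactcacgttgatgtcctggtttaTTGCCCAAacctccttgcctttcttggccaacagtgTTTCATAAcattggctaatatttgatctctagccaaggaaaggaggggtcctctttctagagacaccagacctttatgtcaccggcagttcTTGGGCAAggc
Camp: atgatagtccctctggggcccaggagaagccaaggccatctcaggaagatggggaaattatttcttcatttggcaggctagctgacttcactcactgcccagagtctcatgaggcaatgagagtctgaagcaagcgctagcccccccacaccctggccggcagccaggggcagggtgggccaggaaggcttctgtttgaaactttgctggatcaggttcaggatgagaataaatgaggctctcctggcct
Ly6g: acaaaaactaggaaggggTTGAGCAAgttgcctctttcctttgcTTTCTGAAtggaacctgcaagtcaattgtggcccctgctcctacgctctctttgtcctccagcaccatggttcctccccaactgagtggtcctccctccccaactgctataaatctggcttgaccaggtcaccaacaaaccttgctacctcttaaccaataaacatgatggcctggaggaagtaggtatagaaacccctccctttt
The Ltf window is chr9:111019042-111019291 on the plus strand, Ngp chr9:110419558-110419807 on the plus strand, Camp chr9:109849457-109849706 on the minus strand and Ly6g chr15:75155011-75155260 on the plus strand. RefSeq lists 8 protein-coding genes between Camp and Ngp and 20 between Ngp and Ltf. Ltf had 2 matches, beginning at positions -217 and -75 from the start, and Ngp had 3, at -138, -102 and -11. Ly6g had 2 in this window, at -232 and -206, and Camp had none. Of the 9 listed genes with a promoter entry, 7 held a match, against 36.8% of the 32851 promoter windows of the table. An Ets-type motif, AGGAAG, was looked up in the same way. It was also found in 7 of the 9, against 29.5% of the windows, so the excess was not particular to the C/EBP-type motif. These matches are letters in a window and were not measured as binding sites. Mmp9 was not among the entries.

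Across the 17 arrays the group values differed in most of these genes, and not in 1 common order. Lcn2, Mmp9 and Cd177 were lower on the ITD arrays than on several control groups, Ly6g was high on the vector and parental arrays and low on every array with human FLT3, and Camp was highest on the parental arrays. In a fit of 5 group means over all genes (limma, two-sided, Benjamini-Hochberg adjusted p under 0.05 over 20227 genes), ITD lines had 0 of 10 genes higher and 3 lower than WT + FL, 0 higher and 4 lower than WT, 0 higher and 4 lower than vector, and 1 higher and 4 lower than parental. Among all genes, 5.8% were called in either direction against WT + FL, 7.71% against WT, 14% against vector and 17% against parental. By direction, 1.72% were called higher and 4.08% lower in ITD against WT + FL, 3.27% and 4.44% against WT, 8.82% and 5.21% against vector, and 10.3% and 6.72% against parental. These comparisons share the ITD arrays and are not independent of each other. The median log2 difference over the 10 genes was -0.30, -0.61, -0.54 and -0.72 in that order of comparisons, beside -0.02, -0.04, -0.01 and 0.01 over all genes. In RNA from whole cultures, fewer cells that express a gene and less RNA of it per cell cannot be told apart.

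**Figure D1:**
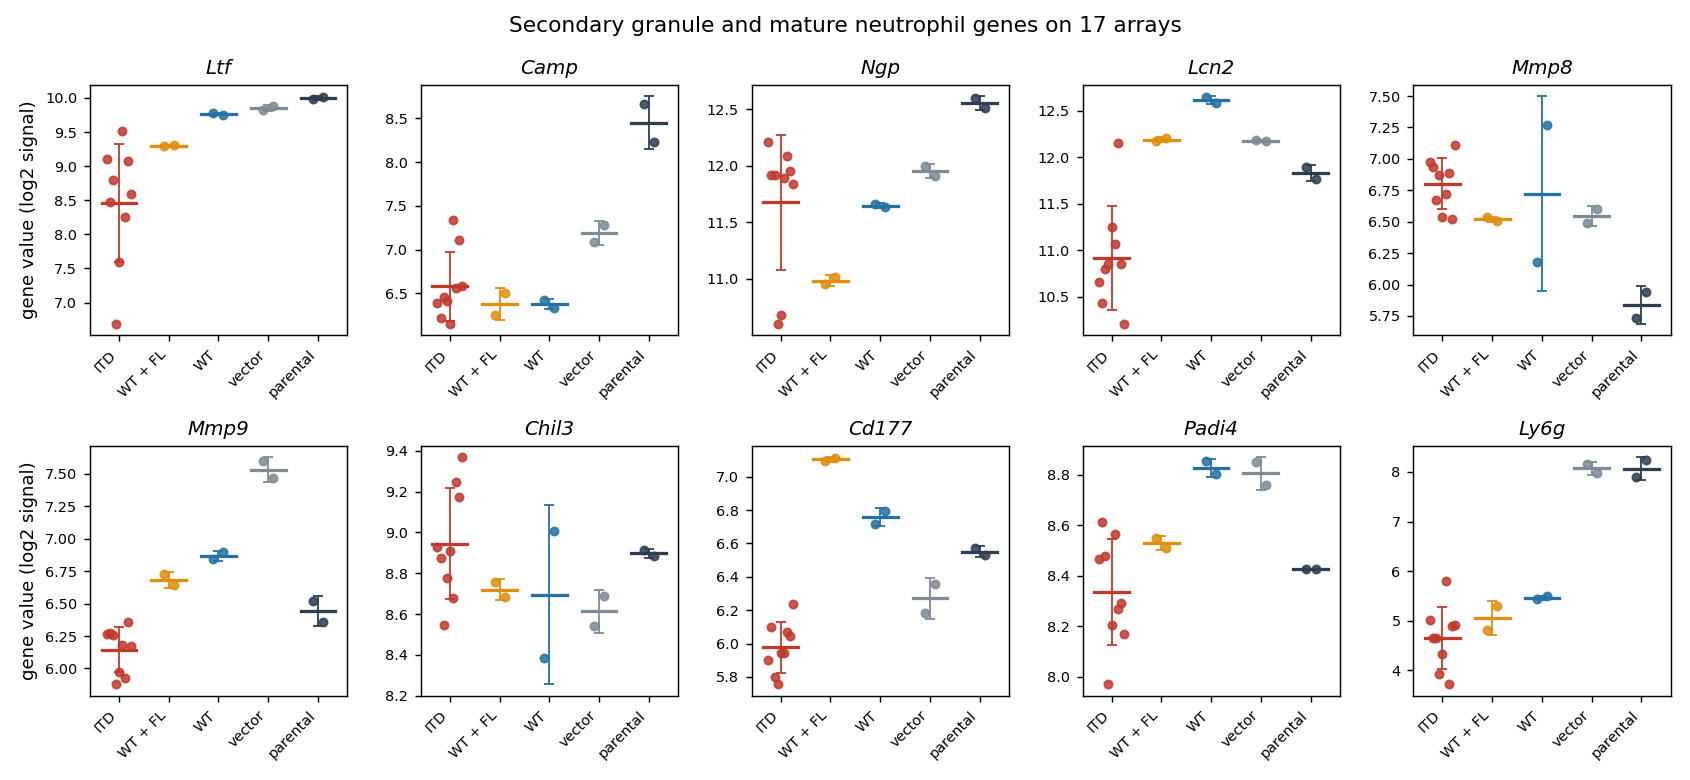
Each panel plots the log2 gene value of 1 gene on the 17 arrays (vertical axis, log2 signal, scaled per panel) by group. Points are arrays, the horizontal line is the group mean and the bar is ± 1 SD (ITD n = 9, other groups n = 2 each). Ly6g lies between 3.72 and 5.81 on ITD arrays and between 7.90 and 8.23 on the parental arrays, while the ITD points of Chil3 overlap those of every other group.

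Facts of the whole series frame these values. The median probe set signal of an array was 4.63 to 4.69, and precision is limited by how many arrays there were. The Flt3 gene value, which mouse probe sets read only in part from the human transgene, was 7.08 to 7.32 on ITD arrays, 6.88 and 6.89 on WT + FL, 6.73 and 6.79 on WT, 5.15 and 5.24 on vector and 5.12 and 5.37 on parental arrays. Of 10 myeloblast markers 9 were measured, and the mean over them was 8.12 to 8.72 on ITD arrays and 8.93 to 9.25 on the others, with Mpo between group means of 10.96 and 12.60, and with Kit (5.50 to 5.75) and Cd34 (5.44 to 5.68) low. Markers of other cell types also moved with the groups. The mean of 7 measured of 8 monocyte and macrophage markers was 6.09 to 7.05 on ITD, 8.18 to 8.23 on WT + FL, 7.81 to 7.96 on WT, 8.30 to 8.38 on vector and 7.06 to 7.22 on parental arrays. The mean of 4 measured of 7 eosinophil markers was 7.19 to 9.57 on ITD, 5.66 to 5.86 on WT + FL, 5.67 to 5.80 on WT, 7.96 to 8.10 on vector and 10.01 to 10.28 on parental arrays. All 8 mast cell and basophil markers gave 8.02 to 9.05 on ITD, 7.28 to 7.29 on WT + FL, 7.27 to 7.44 on WT, 8.54 to 8.56 on vector and 9.83 to 9.99 on parental arrays. The part of these marker differences in the results was not tested.

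Ltf encodes lactoferrin, the iron-binding protein that defines the secondary granule. Its log2 value was 6.69 to 9.51 on the ITD arrays with a median of 8.60, 9.29 and 9.31 on WT + FL, 9.78 and 9.75 on WT, 9.82 and 9.88 on vector and 9.98 and 10.02 on parental arrays. Every ITD array was below every WT, vector and parental array, and 8 of 9 were below both WT + FL arrays. ITD line 6 was the exception. The order of group means from low to high was ITD, WT + FL, WT, vector and parental, and no pair of neighbours in it passed the test. Ltf fell by 1.54 ± 0.47 (log2, SE) in ITD lines against parental cells (adjusted p = 0.0332), a 2.91-fold difference. It differed by -1.31 ± 0.47 from WT (adjusted p = 0.107), by -1.40 ± 0.47 from vector (adjusted p = 0.0604) and by -0.84 ± 0.47 from WT + FL (adjusted p = 0.364), none of which passed. The SD among the ITD lines was 0.86, against a pooled SD of 0.027 within the control pairs. Leaving out ITD line 4, the lowest, gave -1.09 ± 0.32 against WT (adjusted p = 0.0447) and -1.17 ± 0.32 against vector (adjusted p = 0.0219). The difference from vector was also called without line 6, the highest, at -1.53 (adjusted p = 0.0323), without line 8, at -1.47 (adjusted p = 0.0499), and with a stricter filter on dim probe sets (adjusted p = 0.0495). The call against parental was lost without parental replicate 1 or 2, at -1.56 and -1.52, and in a fit of the 2 groups alone, at -1.54 ± 0.53. Of 22 Ltf probe sets, 22 were lower in ITD lines than in WT and than in vector cells, and 21 than in parental cells.

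Ngp encodes neutrophilic granule protein, a cystatin-like protein of the secondary granule. Its value was 10.60 to 12.21 on the ITD arrays with a median of 11.91, 10.95 and 11.02 on WT + FL, 11.66 and 11.63 on WT, 11.99 and 11.91 on vector and 12.60 and 12.51 on parental arrays. All ITD arrays were below both parental arrays, while 7 of 9 were above all WT + FL and WT arrays and lines 4 and 5 were below them. Group means ran from WT + FL through WT, ITD and vector up to parental, and no neighbours differed beyond the test. The differences of ITD lines were 0.69 ± 0.33 from WT + FL (adjusted p = 0.263), 0.03 ± 0.33 from WT (adjusted p = 0.973), -0.27 ± 0.33 from vector (adjusted p = 0.637) and -0.88 ± 0.33 from parental (adjusted p = 0.0825). Ngp was thus called in none of the ITD comparisons. It was called in WT + FL cells against parental cells, where it fell by 1.57 ± 0.42 (adjusted p = 0.0171), a call lost without any 1 of these 4 arrays, at -1.52 to -1.61.

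Camp encodes the precursor of cathelicidin, an antimicrobial peptide stored in secondary granules. Its value was 6.15 to 7.33 on the ITD arrays with a median of 6.46, 6.25 and 6.51 on WT + FL, 6.42 and 6.34 on WT, 7.09 and 7.28 on vector and 8.66 and 8.23 on parental arrays. The parental arrays were above the other 15, with no overlap, and the ITD arrays overlapped those of WT + FL, WT and vector. Camp fell by 1.87 ± 0.24 in ITD lines against parental cells (adjusted p = 3.91e-05), a 3.65-fold difference. It also fell against parental cells by 2.07 ± 0.30 in WT + FL (adjusted p = 0.000199), by 2.07 ± 0.30 in WT (adjusted p = 0.000191) and by 1.26 ± 0.30 in vector cells (adjusted p = 0.0385). The vector call was lost without any 1 of the 8 control arrays, at -1.05 to -1.48, without the filter on dim probe sets, at -1.04 (adjusted p = 0.105), and with the stricter filter, at -1.03 (adjusted p = 0.059). All 5 Camp probe sets were lower in each of these 4 groups than in parental cells. Against the other groups the ITD values were 0.20 ± 0.24 above WT + FL (adjusted p = 0.722), 0.20 ± 0.24 above WT (adjusted p = 0.686) and -0.61 ± 0.24 from vector (adjusted p = 0.102). The difference from vector was called without line 6, at -0.70 (adjusted p = 0.0226), and with the stricter filter, at -0.66 (adjusted p = 0.0479).

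Lcn2 encodes lipocalin 2, a secondary granule protein that binds bacterial siderophores. Its value was 10.21 to 12.16 on the ITD arrays with a median of 10.85, 12.18 and 12.21 on WT + FL, 12.65 and 12.59 on WT, 12.19 and 12.18 on vector and 11.90 and 11.77 on parental arrays. The ITD arrays were below every WT + FL, WT and vector array, and 8 of 9 were below both parental arrays, with line 7 above them. Lcn2 fell in ITD lines by 1.27 ± 0.31 against WT + FL (adjusted p = 0.0209), by 1.70 ± 0.31 against WT (adjusted p = 0.00284) and by 1.26 ± 0.31 against vector (adjusted p = 0.0114). These are differences of 2.42-fold, 3.25-fold and 2.40-fold. Against parental cells the difference was -0.92 ± 0.31 (adjusted p = 0.0518), and without line 7 it was -1.07 ± 0.18 (adjusted p = 0.000618). The parental difference was also called without line 5, at -0.96 (adjusted p = 0.0479), and with the stricter filter on dim probe sets (adjusted p = 0.0393). With the median of the probe sets it was called at -1.005 (adjusted p = 0.0293). Leaving out either array of WT + FL, WT or vector ended the call against that group, at values from -1.26 to -1.73 and with 1 array left in the group. In a fit of the 2 groups alone the WT + FL call was lost too, at -1.27 ± 0.34. All 9 probe sets were lower in ITD lines than in each of the 4 other groups. From low to high the means ran ITD, parental, vector, WT + FL and WT, and no neighbours passed the test.

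**Figure D2:**
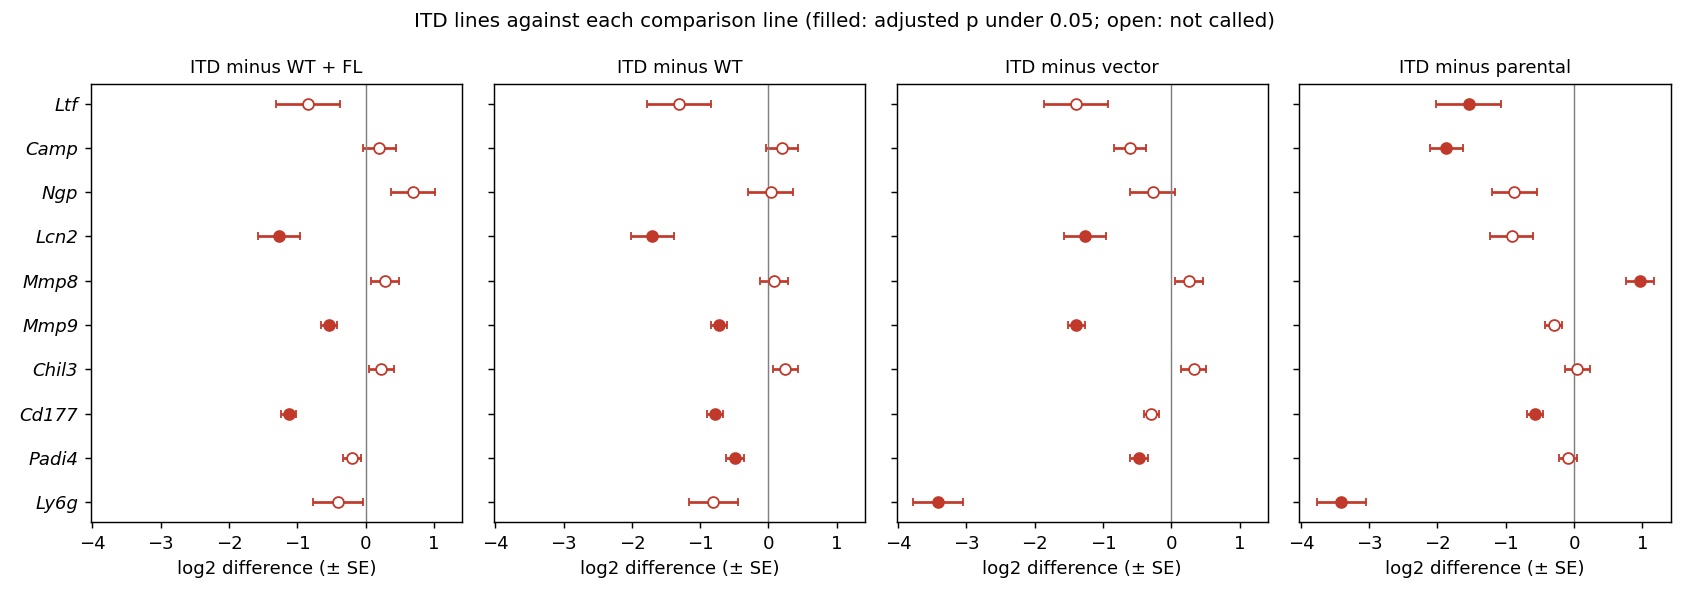
Each panel plots the log2 difference of the ITD lines (n = 9) from 1 comparison line (n = 2) on the horizontal axis for the 10 genes, with bars of ± 1 SE. Filled points passed an adjusted p of 0.05. Lcn2, Mmp9 and Cd177 are filled at -1.27, -0.54 and -1.13 against WT + FL, and Ly6g at -3.41 against parental cells.

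The matrix metalloproteinases digest extracellular matrix, with Mmp8 (neutrophil collagenase) in secondary and Mmp9 (gelatinase B) in tertiary granules. Mmp9 was 5.88 to 6.36 on the ITD arrays with a median of 6.18, 6.72 and 6.64 on WT + FL, 6.84 and 6.90 on WT, 7.60 and 7.46 on vector and 6.52 and 6.36 on parental arrays. The ITD arrays were below every WT + FL, WT and vector array, and they met the parental arrays at the top, where line 8 was not below both. Mmp9 fell in ITD lines by 0.54 ± 0.12 against WT + FL (adjusted p = 0.0129), by 0.72 ± 0.12 against WT (adjusted p = 0.00144) and by 1.39 ± 0.12 against vector (adjusted p = 3.36e-06, 2.62-fold). The difference from parental was -0.30 ± 0.12 (adjusted p = 0.11). With the median of the probe sets in place of their mean, the WT + FL and WT calls were lost, at -0.51 and -0.66, and the WT + FL call was also lost with a stricter filter on dim probe sets, at -0.43. Without either WT + FL array that call was lost at -0.50 and -0.58, and without WT replicate 2 the WT call was lost at -0.70. Mmp9 was highest in vector cells, which exceeded parental cells by 1.09 ± 0.16 (adjusted p = 0.000871), while it fell against vector by 0.85 ± 0.16 in WT + FL (adjusted p = 0.0031) and by 0.66 ± 0.16 in WT (adjusted p = 0.0133). The WT call was lost without any 1 of the WT and vector arrays, at -0.60 to -0.73, and with the median of the probe sets WT + FL and WT were at -0.77 and -0.63, not called.

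Mmp8 rested on 1 of its 14 probe sets. That probe set gave 6.52 to 7.11 on the ITD arrays with a median of 6.87, 6.53 and 6.50 on WT + FL, 6.18 and 7.27 on WT, 6.49 and 6.60 on vector and 5.73 and 5.94 on parental arrays. The parental arrays were below the other 15, and the 2 WT arrays were farther apart than any other pair of this gene. Mmp8 was higher in ITD lines than in parental cells by 0.97 ± 0.20 (adjusted p = 0.00268), and without parental replicate 1 it was 0.86 ± 0.28 and not called. Over all 14 probe sets the difference was 0.17 ± 0.15 (adjusted p = 0.571). The other 13 probe sets averaged 2.75 to 3.41 on ITD arrays, 3.01 to 3.37 on WT + FL, 2.99 to 3.16 on WT, 3.48 to 3.56 on vector and 2.76 to 3.01 on parental arrays, all below the filter. The gene was also higher in WT than in parental cells by 0.89 ± 0.26 (adjusted p = 0.0268), a value that became 0.34 ± 0.22 without WT replicate 2 and 0.23 ± 0.20 over all 14 probe sets, and neither was called.

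Chil3 (Chi3l3 in the array annotation) encodes Ym1, a secreted chitinase-like protein of mouse myeloid cells. Its gene value also rested on 1 of its 19 probe sets, at 8.55 to 9.37 on the ITD arrays with a median of 8.91, 8.76 and 8.68 on WT + FL, 8.38 and 9.01 on WT, 8.54 and 8.69 on vector and 8.91 and 8.88 on parental arrays. The ITD arrays overlapped every other group, both WT + FL arrays and both vector arrays were below both parental arrays, and none of the 10 comparisons called Chil3. The 18 other probe sets averaged 2.42 to 3.33 on ITD arrays, 3.15 and 3.19 on WT + FL, 3.52 and 3.56 on WT, 2.97 and 3.16 on vector, and 4.84 and 4.73 on parental arrays. In 11 of these 18 both parental arrays were above all 15 others, and single probe sets reached 7.66 on a parental array against at most 5.23 elsewhere. With all 19 probe sets, Chil3 differed by -1.88 ± 0.15 in ITD lines from parental cells (adjusted p = 9.99e-07) and by -0.69 ± 0.15 from WT (adjusted p = 0.0142), against 0.05 ± 0.18 and 0.25 ± 0.18 from the 1 probe set. It also differed from parental cells by -1.54 ± 0.20 in WT + FL (adjusted p = 9.11e-05), by -1.19 ± 0.20 in WT (adjusted p = 0.000721) and by -1.64 ± 0.20 in vector cells (adjusted p = 0.000269). Chil3 has near-identical relatives such as Chil4, and which of them each probe set reads was not tested.

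**Figure D3:**
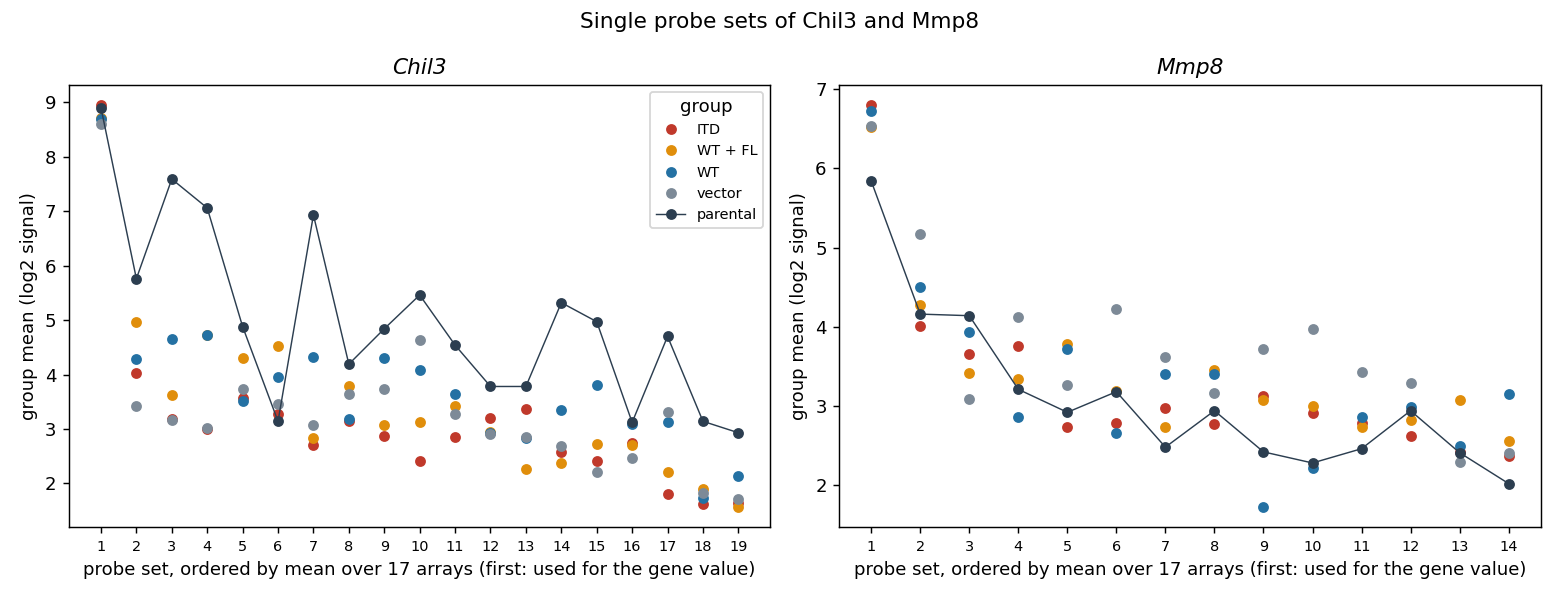
Group means of each probe set of Chil3 (left) and Mmp8 (right), ordered by the mean over 17 arrays, on a log2 signal axis; the first probe set in each panel is the 1 used for the gene value and the line joins the parental means (ITD n = 9, others n = 2). The first Chil3 probe set lies near 8.9 in parental and ITD cells alike, while among the dimmer ones parental means reach 7.59.

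Cd177 encodes a glycoprotein of the neutrophil surface and secondary granule membrane. Its value was 5.75 to 6.24 on the ITD arrays with a median of 5.95, 7.09 and 7.11 on WT + FL, 6.72 and 6.80 on WT, 6.19 and 6.36 on vector and 6.57 and 6.53 on parental arrays. All ITD arrays were below those of WT + FL, WT and parental cells, and line 9 alone reached into the range of the vector pair. Cd177 fell in ITD lines by 1.13 ± 0.11 against WT + FL (adjusted p = 1.7e-05, 2.18-fold), by 0.78 ± 0.11 against WT (adjusted p = 0.000428) and by 0.57 ± 0.11 against parental (adjusted p = 0.0018). Against vector it differed by -0.29 ± 0.11 (adjusted p = 0.0965). With the median of the probe sets the parental call was lost, at -0.42 ± 0.20 (adjusted p = 0.197), and the difference from vector was called, at -0.67 ± 0.20 (adjusted p = 0.037). Without line 9 the difference from vector was also called, at -0.33 ± 0.10 (adjusted p = 0.0426). The order from low to high was ITD, vector, parental, WT and WT + FL, and no neighbours passed the test. Cd177 was higher in WT + FL than in vector cells by 0.83 ± 0.14 (adjusted p = 0.00236) and than in parental cells by 0.55 ± 0.14 (adjusted p = 0.0143), and higher in WT than in vector cells by 0.49 ± 0.14 (adjusted p = 0.0468). The calls against vector were lost with the median of the probe sets, at 0.54 for WT + FL and 0.08 for WT. The WT call was also lost without any 1 of 13 of the 17 arrays, all WT and vector arrays among them, at 0.40 to 0.57. The call of WT + FL against parental was lost without any 1 of its 4 arrays, at 0.53 to 0.58, and with the stricter filter, at 0.32. With the median of the probe sets that call was lost too, at 0.79 (adjusted p = 0.0507).

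Ly6g encodes the surface antigen that marks mouse neutrophils. Its value was 3.72 to 5.81 on the ITD arrays with a median of 4.66, 4.82 and 5.30 on WT + FL, 5.43 and 5.50 on WT, 8.16 and 7.98 on vector and 7.90 and 8.23 on parental arrays. All 13 arrays with human FLT3 were below all 4 without it, by more than 2 log2 units, and ITD arrays overlapped those of WT + FL and WT. Ly6g fell in ITD lines by 3.41 ± 0.36 against parental cells (adjusted p = 6.95e-06) and by 3.42 ± 0.36 against vector (adjusted p = 1.59e-05). It fell in WT + FL by 3.01 ± 0.46 against vector (adjusted p = 0.00112) and by 3.01 ± 0.46 against parental (adjusted p = 0.000302), and in WT by 2.61 ± 0.46 against vector (adjusted p = 0.00239) and by 2.60 ± 0.46 against parental (adjusted p = 0.000937). The differences of ITD lines from WT + FL (-0.40 ± 0.36, adjusted p = 0.615) and from WT (-0.81 ± 0.36, adjusted p = 0.198) and of vector from parental cells (0.00 ± 0.46, adjusted p = 0.999) did not pass. The ITD values lie at or near the median signal of an array, so the size of these differences is not given as a fold. The 2 probe sets below the filter followed the same split, at 1.83 to 3.76 on ITD, 3.37 and 3.55 on WT + FL, 3.38 and 3.76 on WT, 6.07 and 5.22 on vector and 5.28 and 5.50 on parental arrays. Ly6g has close relatives in the Ly6 family, and their share in these signals was not tested.

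Padi4 encodes the peptidylarginine deiminase that citrullinates histones in neutrophils. Its value was 7.97 to 8.61 on the ITD arrays with a median of 8.29, 8.55 and 8.51 on WT + FL, 8.85 and 8.80 on WT, 8.85 and 8.76 on vector and 8.43 and 8.43 on parental arrays. The ITD arrays were below all WT and vector arrays and overlapped those of WT + FL and parental cells. Padi4 fell in ITD lines by 0.49 ± 0.13 against WT (adjusted p = 0.0316) and by 0.47 ± 0.13 against vector (adjusted p = 0.0251). Both calls were lost without either array of the comparison pair, at -0.43 to -0.52, and in fits of the 2 groups alone, where the SE was 0.15. The vector call was lost with the median of the probe sets, at -0.41, and the WT call without the filter on dim probe sets, at -0.45. The difference was -0.19 ± 0.13 from WT + FL (adjusted p = 0.479) and -0.09 ± 0.13 from parental (adjusted p = 0.733).

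The comparison of WT + FL with WT set ligand-treated cells beside the same transduced line in IL-3 without ligand. Added ligand and a possible loss of IL-3 cannot be told apart in it. There limma called 0 of 10 genes and 0% of all genes. Over all genes, 1555 had an unadjusted p under 0.05 and the smallest adjusted p was 0.141. Ltf differed by -0.47 ± 0.61, Ngp by -0.66 ± 0.42, Lcn2 by -0.43 ± 0.40 and Cd177 by 0.35 ± 0.14, and these SEs carry the spread of the 9 ITD lines. Both WT + FL arrays were below both WT arrays in 6 genes (Ltf, Ngp, Lcn2, Mmp9, Padi4 and Ly6g), against 22.8% of all genes, and above them in Cd177, against 25% of all genes. All 22 Ltf, 6 Ngp and 9 Lcn2 probe sets were lower in WT + FL. Of the probe sets used for the other genes, 22 of 24 were lower for Padi4, 11 of 17 for Mmp9 and 1 of 2 for Ly6g. A fit of these 4 arrays alone, which called 4.69% of all genes and 1.28% as lower, called Ltf (SE 0.067, adjusted p = 0.0111), Ngp (SE 0.052, adjusted p = 0.00158) and Lcn2 (SE 0.043, adjusted p = 0.00406) lower.

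Among the control lines, WT + FL had 1 gene higher and 2 lower than vector (8.22% and 2.4% of all genes) and 1 higher and 3 lower than parental (10.7% and 4.66%). WT had 1 higher and 2 lower than vector (5.5% and 2.71%) and 1 higher and 2 lower than parental (9.05% and 5.53%). Vector cells had 1 higher and 1 lower than parental (1.27% and 0.959%). In either direction these comparisons called 10.6%, 15.4%, 8.22%, 14.6% and 2.23% of all genes. Between the receptor-free lines the calls were Mmp9 and Camp. These pairs share arrays too.

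Among the 9 ITD lines the SDs of Ltf, Ngp and Lcn2 were 0.86, 0.60 and 0.56, against pooled SDs of 0.027, 0.051 and 0.049 within the control pairs. For Mmp8 the SD was 0.20 among ITD lines and 0.396 within pairs, and for Chil3 it was 0.27 and 0.228. Each line carries another mutant on 1 array, so the difference between mutants cannot be told apart from that between cultures, and no single line was tested. Line 4 was lowest of the 9 for 5 genes (Ltf, Ngp, Mmp9, Cd177 and Padi4), line 6 was highest for 3 (Ltf, Camp and Ly6g), and line 9 was highest for 3 (Mmp8, Chil3 and Cd177). Ltf was 6.69 in line 4 and 7.60 in line 5, with the other 7 lines between 8.25 and 9.51. Ngp was 10.60 and 10.68 in lines 4 and 5 and 11.84 to 12.21 in the rest. Lcn2 was not low in these lines, at 10.85 and 11.25, and it was highest in line 7, at 12.16. The Ly6g value was lowest in line 7, at 3.72, near the median signal of an array. Its 2 probe sets differed there, at 2.65 and 4.78, and the second was lowest in line 4, at 3.35.

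**Figure D4:**
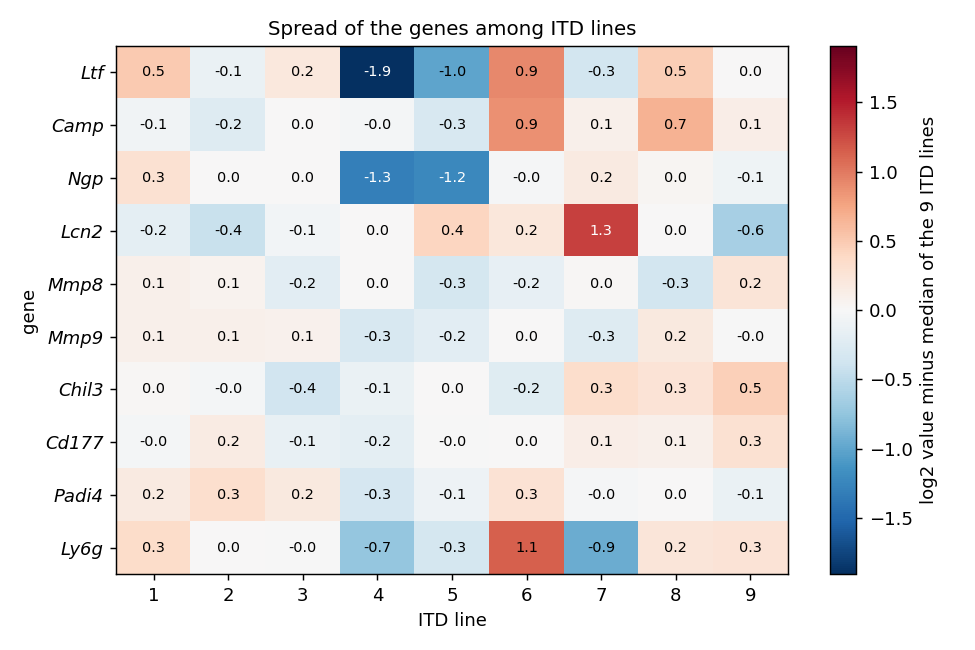
Colour and number give the log2 value of each gene (rows) in each ITD line (columns) minus the median of the 9 lines. Line 4 is at -1.9 for Ltf and -1.3 for Ngp, line 6 at 1.1 for Ly6g, and line 7 at 1.3 for Lcn2.

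Over the 9 ITD arrays Ltf and Ngp had a Pearson r of 0.852 and a Spearman rho of 0.5. Without lines 4 and 5, the farthest from the median of Ltf, r was -0.035 over 7 lines, so the relation rests on those lines. Ltf and Ly6g had an r of 0.789 and a rho of 0.867 over the 9 lines and an r of 0.888 without lines 4 and 5. Ly6g lies at or near the median signal of an array in these lines. Among all pairs of the listed genes, Ltf and Ngp had the highest r and Ltf and Ly6g the highest rho. Other pairs reached down to an r of -0.572 (Lcn2 and Mmp9), and Ltf and Lcn2 had an r of -0.16. The points share the array preparation and normalisation, and the correlations are descriptions of these lines.

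**Figure D5:**
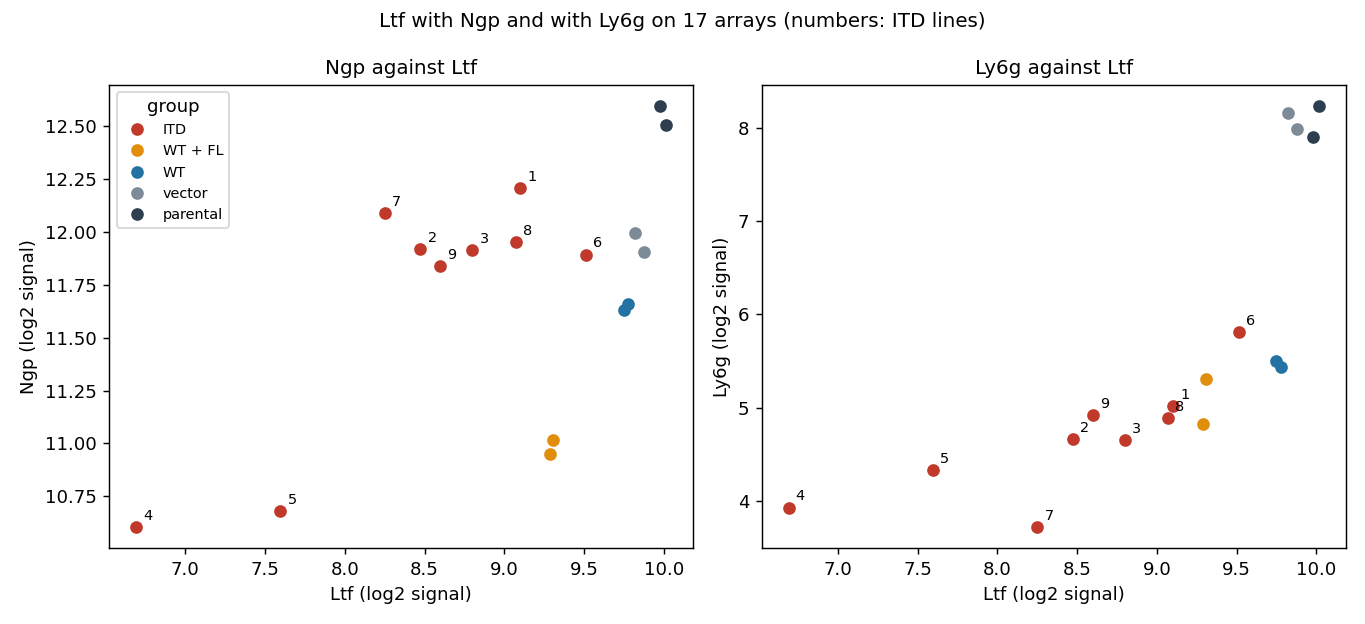
Ngp (left) and Ly6g (right) against Ltf on 17 arrays, each axis a log2 gene value, colours for groups and numbers for ITD lines. In the left panel ITD lines 4 and 5 stand apart at low Ltf and Ngp; in the right panel the 4 vector and parental arrays lie at Ly6g of 7.90 or above.

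For each gene the other genes with the most similar pattern over the 17 arrays were looked up among genes with at least 3 probe sets. Ltf was most like Lrg1 (r of 0.941 over 17 arrays, 0.909 over the 9 ITD arrays), itself a granule gene. Lcn2 was most like Gramd1b (0.960 and 0.894), Mmp9 like Plxnd1 (0.960 and 0.860), Ly6g like Slc2a6 (0.943 and 0.616), Camp like Cma1 (0.925 and 0.711) and Ngp like Trib1 (0.890 and 0.859). Cd177 was most like Gpr108 with r of 0.919, which was 0.097 over the ITD arrays alone. Padi4 was most like Dpp7 (0.897 and 0.890), Mmp8 like Trp53rkb (0.866 and 0.680) and Chil3 like Cby2 (0.812 and 0.907), where the Mmp8 and Chil3 values rest on 1 probe set. The next most similar genes were Agpat2 for Ltf (0.911), Supt4a for Lcn2 (0.935), Wdr41 for Mmp9 (0.920), Cd300a for Ly6g (0.940), Shank2 for Camp (0.918), Timm29 for Ngp (0.884), Mtus1 for Cd177 (0.911), Tnfrsf1b for Padi4 (0.897), Fnbp1l for Mmp8 (0.852) and Trpv5 for Chil3 (0.802), each over 17 arrays. These are the highest values of a search over all genes, the arrays fall into separate groups, and the values describe likeness only.

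Of 12 other secondary and tertiary granule genes, all measured, 1 rose and 6 fell against WT + FL, 0 rose and 5 fell against WT, 0 rose and 9 fell against vector, and 1 rose and 8 fell against parental cells, with medians of -0.67, -0.70, -0.97 and -0.95. For this list and those below, the shares of all genes called higher and lower were 1.72% and 4.08% against WT + FL and 3.27% and 4.44% against WT. They were 8.82% and 5.21% against vector and 10.3% and 6.72% against parental cells. Fcnb, a ficolin, fell by 3.05 ± 0.19 against parental cells (adjusted p = 7.43e-08). Its mean was 8.54 in parental cells, 5.49 in ITD lines, 6.70 in WT + FL, 6.11 in WT and 6.55 in vector cells. Hp, haptoglobin, fell by 2.84 ± 0.31 against vector (adjusted p = 2.27e-05) and by 2.02 ± 0.31 against WT + FL (adjusted p = 0.00098). Cfp, properdin, fell by 2.63 ± 0.25 against WT + FL (adjusted p = 1.05e-05). Its mean was 8.32 in ITD lines and 7.94 in parental cells, against 10.95 in WT + FL, 10.28 in WT and 10.59 in vector cells. Itgb2l fell by 1.76 ± 0.22 against WT (adjusted p = 0.000128). Cybb, the oxidase subunit, was the gene that rose, by 1.54 ± 0.41 against WT + FL (adjusted p = 0.0367) and 1.29 ± 0.41 against parental (adjusted p = 0.0411), on 1 probe set.

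Of 13 measured other genes of the mature neutrophil, 1 rose and 5 fell against WT + FL, 0 rose and 6 fell against WT, 1 rose and 7 fell against vector, and 0 rose and 7 fell against parental cells. S100a9, a calprotectin subunit, fell by 2.70 ± 0.36 against WT (adjusted p = 0.00022), and Trem1, an activating receptor of neutrophils and monocytes, fell by 3.29 ± 0.32 (adjusted p = 1.59e-05). Csf3r, the G-CSF receptor, fell by 1.99 ± 0.30 against WT + FL (adjusted p = 0.00067). The mean of Ltb4r1 was higher in ITD lines (8.67) than in WT + FL (8.07), WT (8.47) and vector cells (8.18), and lower than in parental cells (9.46). Cxcr2, a chemokine receptor, fell by 1.49 ± 0.39 against parental cells (adjusted p = 0.0135). Its mean was 8.13 in parental cells and 6.63 in ITD lines, against 6.26 in WT + FL, 6.15 in WT and 6.54 in vector cells. The lower value was thus shared by all transduced groups.

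Of 7 measured primary granule genes, 0 rose in any ITD comparison and 1, 1, 3 and 6 fell against WT + FL, WT, vector and parental cells. Lyz2, lysozyme M, was the 1 gene called against WT + FL (-0.97 ± 0.18, adjusted p = 0.00422) and against WT (-0.93 ± 0.18, adjusted p = 0.00525), and Mpo, myeloperoxidase, fell by 1.64 ± 0.26 against parental cells (adjusted p = 0.000335). The mean of Mpo was 12.60 in parental cells, 10.96 in ITD lines, 11.56 in WT + FL, 11.48 in WT and 11.44 in vector cells. Differences between the lists were not tested.

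Of 11 transcription factors of the neutrophil lineage, 1 rose and 4 fell in ITD lines against WT + FL, 2 rose and 4 fell against WT, 0 rose and 4 fell against vector, and 0 rose and 5 fell against parental cells. Gfi1, a repressor needed for neutrophil formation, fell by 1.69 ± 0.19 against vector (adjusted p = 3.37e-05), and Spi1 (PU.1) fell by 1.11 ± 0.11 (adjusted p = 6.9e-06). Cebpe, which encodes C/EBPε, was 10.58 to 11.46 on the ITD arrays, 11.06 and 10.95 on WT + FL, 11.11 and 11.16 on WT, 11.40 and 11.49 on vector and 11.81 and 11.77 on parental arrays. It fell by 0.75 ± 0.16 against parental cells (adjusted p = 0.00344), and differed by 0.03, -0.10 and -0.41 from WT + FL, WT and vector, none of which passed. Those that rose were Cebpa against WT + FL, by 0.47 ± 0.13 (adjusted p = 0.0361), and Runx1 and Cux1 against WT, by 0.84 ± 0.21 (adjusted p = 0.0228) and 0.58 ± 0.17 (adjusted p = 0.0472). Cebpa and Cux1 in these comparisons were named after their values were seen.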

How the data were processed

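The values the authors deposited were log2 signals per probe set. The submitters' processing notes name RMA, which corrects background, quantile-normalises and summarises the probes, and Affymetrix Expression Console 1.1. The genome build and any probe set filter are not given in the sources used here, and the labels used here give no array batch. Of 1256831 probe sets, 318760 had 1 gene symbol in the platform annotation, 6684 had several and 931387 had none, and the last 2 kinds were not used. Of 22296 symbols, 18006 were current in RefSeq (GRCm38.p6), 4227 were updated and 63 were kept as given. A probe set was used where its mean over 17 arrays exceeded 4.599, which left 237584. Gene values were the mean of the used probe sets.

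Group means were fitted with limma 3.58.1 in R 4.3.3 (lmFit, eBayes with trend) over 17 arrays, with 12 residual and 4.49 prior degrees of freedom, two-sided, and adjusted by Benjamini-Hochberg over 20227 genes. ITD lines were numbered in accession order. In simulated data, changes of 1 (log2) were recovered for 80% to 83% of the changed genes and changes of 2 for 98% to 100% in the ITD comparisons. The simulation gave each gene 1 spread on all arrays and no difference among the controls. Its rates need not hold for genes such as Ltf, with an SD of 0.86 among ITD lines and 0.027 within control pairs. Alternatives were no or a stricter probe set filter (mean above 6.341), the median of probe sets, repeated quantile normalization, no trend, a fit of the compared groups only, a replicate block, and leaving out each array. Same-numbered control arrays did not deviate together across genes (r of -0.118 to 0.092). That gave no sign of pairing by number, but it cannot exclude a shared culture or preparation. Arrays of a pair correlated at 0.983 to 0.986 across genes. The named genes were the 10 listed genes in every comparison, up to 4 called genes of each other list, and the 2 most similar genes per listed gene. The genes, lists and tests were chosen with earlier results of these data known.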

Additional observations from a re-analysis of the deposited data

How the results depend on the processing

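Over 2390 recomputed differences of the 10 genes, 2270 stayed on their side of the threshold, with the direction kept where called. A call was lost in 77, gained with the sign of the main fit in 41 and gained with the opposite sign in 2. The last 2 were Chil3 without the filter on dim probe sets, at -0.69 in ITD against WT and -1.88 against parental cells, where 18 dim probe sets join the 1 bright one. In the main fit these differences were 0.25 and 0.05 and were not called. The counts of called genes against the control lines moved most in fits of the 2 compared groups alone, whose spread leaves out the ITD lines: 3 for WT + FL against WT (0 in the fit of all 17 arrays), 7 against vector (3), 7 against parental (4), 6 for WT against vector (3), 6 for WT against parental (3) and 6 for vector against parental (2). The same fits called 4.69%, 28.1%, 25.1%, 24.1%, 23.2% and 9.95% of all genes. With the stricter filter the counts were 2 for WT + FL against parental, 1 for WT against vector and 1 for vector against parental. Ly6g has no probe set above that filter and was not measured there, and the other calls lost were Cd177 in the first 2 comparisons (0.32 and 0.30) and Camp in the last (-1.03). With the median of probe sets they were 1 for WT + FL against vector and 1 for WT against vector. Without the trend vector against parental had 1. The cause of the changes with the median and without the trend was not tested.

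With replicate number as a block the count for vector against parental was 1, because Camp (adjusted p = 0.0544) was lost. In WT against vector Cd177 was lost (adjusted p = 0.0604), and the block changed no other call. Leaving out each array in turn gave 1 to 3 called genes for ITD against WT + FL (1 without either WT + FL array), 1 to 5 against WT (2 and 1 without WT replicates 1 and 2), 2 to 6 against vector (2 without either vector array) and 3 to 6 against parental (3 without parental replicate 1). It gave 0 to 0 for WT + FL against WT, 3 to 4 against vector, 2 to 5 against parental, 1 to 3 for WT against vector, 2 to 4 for WT against parental and 1 to 2 for vector against parental. The 2 for WT + FL against parental came without either array of either group, the 1 for WT against vector likewise, and the 1 for vector against parental without any 1 of the 8 control arrays. Repeated quantile normalization changed no call of the 10 genes. It moved the share of higher calls among all called genes to 45.6% for ITD against WT + FL (29.6% as deposited), 56.8% for WT + FL against vector (77.4%), 53.7% for WT + FL against parental (69.7%), 51.3% for WT against vector (67%), 51% for WT against parental (62.1%), 51.9% for ITD against WT (42.4%), 54.2% for ITD against vector (62.9%) and 52.7% for ITD against parental (60.5%). Pairs of 2 arrays and 1 array per ITD mutant limit the precision.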
